A study of Mus musculus with 3 samples.

Results

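The genes described here are those of sterol and fatty acid synthesis that are known as targets or regulators of the sterol regulatory element-binding proteins (SREBPs), measured in RAW264.7 cells, an established mouse macrophage line. They were chosen by name with earlier results of the same arrays in view, as 34 genes, and 33 of them were found among the 36864 gene names of the array. The exception was Acat2. The 33 genes fall into 17 enzymes of the sterol pathway, 6 regulators and carriers of the SREBP system and 10 enzymes of fatty acid synthesis and desaturation. RNA was measured on 1 array for each of 3 conditions. In the first, macrophages received lipopolysaccharide (LPS), the bacterial agonist of TLR4, for 3 h without lactobacilli (LPS). In the others, the cells were exposed for 12 h to Lactobacillus plantarum LOC1 or LOC3 and then challenged with LPS for 3 h (LOC1 + LPS and LOC3 + LPS). The LPS challenge was thus shared by all 3 conditions, and the study's methods give another duration of exposure to lactobacilli than the 12 h of the series description. The array of unchallenged macrophages was not analysed here and enters only through the ratios that the authors deposited. With 1 array per condition there is no spread between cultures, so no test, SD or p-value is given for any difference between conditions.

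SREBPs are membrane-bound transcription factors of the endoplasmic reticulum. When membrane sterol is low, SCAP escorts them to the Golgi apparatus, where proteolysis releases the part that enters the nucleus, and when sterol is high the INSIG proteins hold SCAP back. The product of Srebf2 is known mainly for driving the sterol pathway, and the forms made from Srebf1 for driving fatty acid synthesis. In macrophages these pathways supply membrane lipid, and sterol metabolism is known to be altered by TLR4 and interferon signalling.

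All 8 macrophage markers examined (Adgre1, Cd68, Csf1r, Itgam, Lyz2, Cd14, Mpeg1 and Spi1) were well above background on all 3 arrays, with intensities from 1699 to 244528. Of markers of other cells, Krt18 was not well above background on any array, and Ms4a1, Epcam, Col1a1, Pdgfra, Pecam1, Cdh5 and Cd3d stayed at or below 72.8. The T cell marker Cd3e read 396 to 451. Ms4a1 (29.0, 55.9 and 18.8 in LPS, LOC1 + LPS and LOC3 + LPS) and Cdh5 (41.1, 72.8 and 70.0) differed between arrays, and of the macrophage markers Csf1r was the most different from LPS (-0.85 and -0.66 on the log2 scale); their part in the results was not tested. Between 47.8% and 51.9% of the 56597 probes were well above background, no spot was saturated, and the 75th percentile of intensity was 367 (LPS), 332 (LOC1 + LPS) and 334 (LOC3 + LPS). Intensities below are given as deposited, in arbitrary units, and each difference is a difference of log2 intensities after subtraction of each array's 75th percentile, so that a difference of -1 is 2-fold lower. A gene was read from its brightest probe. Probes printed 8 to 10 times on each array gave an SD of the log2 difference between arrays of at most 0.06 for bright probes and 0.35 for dim ones, which covers spot noise only. Fewer cells of a kind and less RNA per cell cannot be told apart in bulk RNA.

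Promoter sequences were examined first, since SREBPs act on promoters together with the factors NF-Y and Sp1. RefSeq promoters of 300 bases (250 before to 50 after the start, GRCm38.p6) were at hand for 27 of the 34 genes, 36 promoters in all. Each was searched on both strands for a sterol regulatory element (TCACNCCAC), an NF-Y box (CCAAT, read ATTGG on the other strand), a GC box (GGGCGG, read CCGCCC on the other strand) and an E-box (CACGTG). The sterol regulatory element letters were held by 1.24% of all 32851 promoters and by 1 of the 36 promoters of these genes, that of Hmgcs1. NF-Y boxes stood in 37.4% of all promoters and in 23 of the 36. GC boxes stood in 35.7% of all promoters and in 27 of the 36, and E-boxes in 7.15% of all and in 6 of the 36. An NF-Y box and a GC box occurred together in 12.8% of all promoters and in 18 of the 36. Among the 15 sterol enzymes with a promoter (Acat2 included), 14 held an NF-Y box, against 4 of the 7 fatty acid enzymes.

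The promoters of 5 genes are shown to give these letters in place: Hmgcs1 (chr13:119690101-119690400, plus strand) as the one with the sterol regulatory element, Hsd17b7 (chr1:169969156-169969455, minus strand) as another strongly lowered sterol enzyme, Insig1 (chr5:28071162-28071461, plus strand) as a regulator, Tm7sf2 (chr19:6067801-6068100, minus strand) as the sterol enzyme that was not lowered, and Fasn (chr11:120824498-120824797, minus strand) as the central fatty acid enzyme. Capitals mark a match to any of the motifs on either strand.
Hmgcs1: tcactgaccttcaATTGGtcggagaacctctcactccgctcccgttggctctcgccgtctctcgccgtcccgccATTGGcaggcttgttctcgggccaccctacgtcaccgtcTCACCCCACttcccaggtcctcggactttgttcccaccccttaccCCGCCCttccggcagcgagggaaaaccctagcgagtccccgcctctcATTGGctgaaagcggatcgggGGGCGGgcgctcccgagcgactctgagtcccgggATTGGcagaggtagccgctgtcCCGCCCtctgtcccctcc
Hsd17b7: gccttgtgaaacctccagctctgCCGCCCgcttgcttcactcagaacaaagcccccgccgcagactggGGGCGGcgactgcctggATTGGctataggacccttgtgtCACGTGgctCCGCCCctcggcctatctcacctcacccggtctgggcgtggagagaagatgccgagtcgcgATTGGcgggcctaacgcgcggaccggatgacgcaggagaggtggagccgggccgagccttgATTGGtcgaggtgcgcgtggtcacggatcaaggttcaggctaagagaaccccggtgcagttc
Insig1: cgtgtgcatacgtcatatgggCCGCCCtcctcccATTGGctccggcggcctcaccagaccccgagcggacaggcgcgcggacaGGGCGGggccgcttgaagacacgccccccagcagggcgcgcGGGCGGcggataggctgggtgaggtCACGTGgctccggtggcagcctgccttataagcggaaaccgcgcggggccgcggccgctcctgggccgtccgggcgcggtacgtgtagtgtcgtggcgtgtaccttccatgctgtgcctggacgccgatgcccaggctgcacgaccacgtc
Tm7sf2: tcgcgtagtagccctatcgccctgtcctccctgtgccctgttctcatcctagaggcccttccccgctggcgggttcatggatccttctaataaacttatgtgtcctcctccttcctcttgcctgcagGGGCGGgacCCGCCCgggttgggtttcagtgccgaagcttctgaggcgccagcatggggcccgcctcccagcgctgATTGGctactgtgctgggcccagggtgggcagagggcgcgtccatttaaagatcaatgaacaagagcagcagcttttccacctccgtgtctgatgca
Fasn: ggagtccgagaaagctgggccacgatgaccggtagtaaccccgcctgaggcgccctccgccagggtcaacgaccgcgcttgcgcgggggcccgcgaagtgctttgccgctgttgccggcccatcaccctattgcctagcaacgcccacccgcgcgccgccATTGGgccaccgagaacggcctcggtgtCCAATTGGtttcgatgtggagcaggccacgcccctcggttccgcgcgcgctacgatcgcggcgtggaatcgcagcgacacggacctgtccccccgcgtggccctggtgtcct
The Hmgcs1 promoter held 1 sterol regulatory element, 4 NF-Y boxes and 3 GC boxes. Hsd17b7 held 3 NF-Y boxes, 3 GC boxes and 1 E-box, and Insig1 held 1, 3 and 1 of these. Tm7sf2 held 1 NF-Y box and 2 GC boxes, and Fasn held 3 NF-Y boxes, of which the last pair overlap on opposite strands, and no GC box. These matches are letters in a window and say nothing about binding.

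Most sterol enzymes were lower in LPS-challenged macrophages that had met either strain than in those with LPS alone, whereas no measured difference of a fatty acid enzyme reached 2-fold at its brightest probe. In LOC1 + LPS, 12 of the 32 genes that could be compared were at least 2-fold lower than in LPS and 0 were higher. Of all 20018 genes compared, 3.51% were 2-fold lower and 2.7% higher. In LOC3 + LPS, 9 of 32 were lower and 0 higher, where 2.9% of 19789 genes were lower and 3.19% higher. The 9 lowered with LOC3 were all sterol enzymes, and the 12 lowered with LOC1 were 11 sterol enzymes and the sterol carrier Stard4. At a threshold of 1.5-fold, 16 genes were lower with LOC1 and 13 with LOC3 and 0 higher, where 10.5% and 8.7% of all genes were lower and 8.75% and 8.65% higher. These directions and the choice of the genes come from the same arrays, so the counts describe the group and are not evidence for it. Both comparisons share the single LPS array, and a deviation of that array would move both strains' values together.

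**Figure D1:**
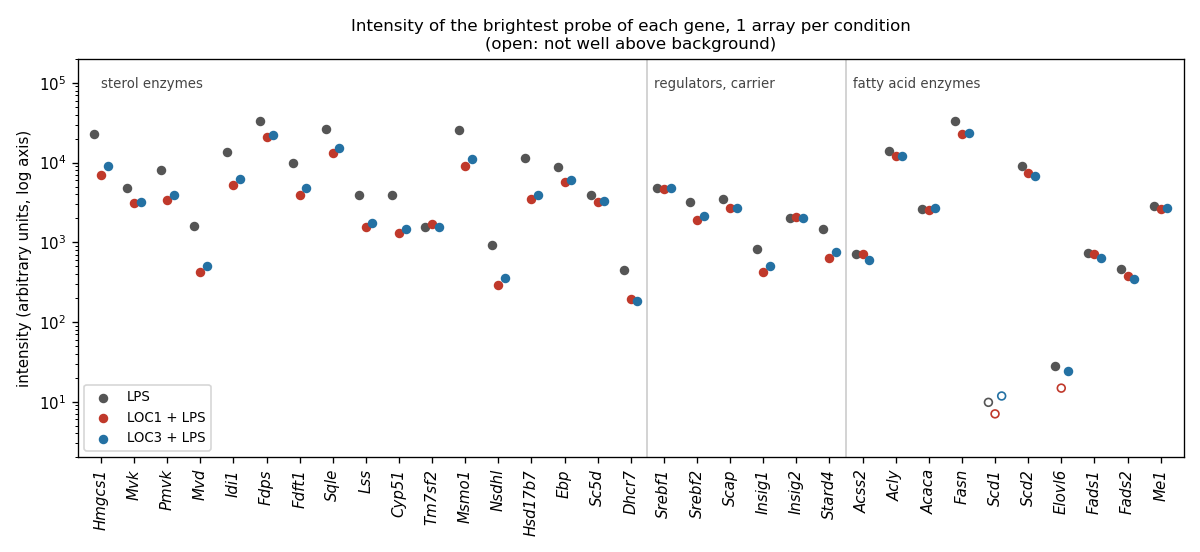
Intensity (arbitrary units, log axis) of the brightest probe of each of the 33 genes on the 3 arrays (points: LPS grey, LOC1 + LPS red, LOC3 + LPS blue, 1 array each; open points are not well above background). In most sterol enzymes the LPS point lies above both lactobacilli points, while in most fatty acid enzymes the 3 points lie close together, and Scd1 lies at background.

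The early, mevalonate part of the pathway was lowered at its entry and at several later steps. Hmgcs1, the cytosolic HMG-CoA synthase that commits acetyl units to the pathway, read 22613 in LPS, 6879 in LOC1 + LPS and 9051 in LOC3 + LPS, and fell by 1.57 and 1.18 on the log2 scale. Mvd, the decarboxylase that makes isopentenyl diphosphate, read 1612, 420 and 502 in the same order. It fell by 1.79 (LOC1) and by 1.55 (LOC3) on the log2 scale (3.47-fold and 2.92-fold lower). Among the genes with a brightest probe well above background on both arrays compared, no other fell more. The Mvd probe lies on chr8:124957750-124957809 (mm9, minus strand). In both genes the LPS array stood highest and LOC1 + LPS lowest. The kinase Pmvk, which makes mevalonate diphosphate, read 8054, 3370 and 3933, with differences of -1.11 and -0.90, so that it passed 2-fold with LOC1 only. Idi1, the isomerase of isopentenyl diphosphate, read 13699, 5281 and 6136 (-1.23 and -1.02). Mvk and Fdps lay between, lower on both lactobacilli arrays but by less than 2-fold. Mvk, the first kinase of the pathway, read 4861, 3100 and 3245 (-0.50 and -0.45). Fdps, which joins the isoprene units into farnesyl diphosphate, read 33025, 20739 and 21864 (-0.53 and -0.46).

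From farnesyl diphosphate to lanosterol, all 3 enzymes were lower with both strains. Fdft1, the squalene synthase, read 9810 in LPS, 3927 in LOC1 + LPS and 4726 in LOC3 + LPS (-1.18 and -0.92). Sqle, the squalene epoxidase and a rate-limiting oxygenation step, read 26283, 13102 and 15226 (-0.86 and -0.65), within 2-fold of LPS in both. Lss, which closes the rings of lanosterol, read 3951, 1572 and 1752 and fell by 1.19 and 1.03. At the brightest probe, Lss thus passed 2-fold with both strains, Fdft1 with LOC1 only and Sqle with neither. For Fdft1 this depended on the probe, since its second probe gave -1.20 and -1.07, past 2-fold with both strains.

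The steps from lanosterol to cholesterol held 5 enzymes past 2-fold with each strain and also the sole enzyme that was not lower. Cyp51, the lanosterol demethylase, read 3946 in LPS, 1293 in LOC1 + LPS and 1475 in LOC3 + LPS (-1.46 and -1.28). Msmo1, Nsdhl and Hsd17b7 act in turn to remove methyl groups from the sterol ring. Msmo1, the oxidase, read 25558, 9089 and 11001 (-1.35 and -1.08), Nsdhl, the dehydrogenase, 933, 293 and 353 (-1.53 and -1.26), and Hsd17b7, the ketoreductase, 11295, 3452 and 3922 (-1.57 and -1.39). All 3 demethylation genes were therefore at least 2-fold lower with both strains, with LPS highest and LOC1 + LPS lowest on the brightest probe of each. The probes of Msmo1, Nsdhl and Hsd17b7 lie on chr8:67196982-67197041 (minus strand), chrX:70203236-70203295 (plus strand) and chr1:171882591-171882650 (minus strand) of mm9. Dhcr7, a reductase of the final steps, read 445, 196 and 184 (-1.04 and -1.13) and was the sole lowered sterol enzyme with its lowest value in LOC3 + LPS. Ebp, the sterol isomerase, read 8878, 5769 and 6095 (-0.48 and -0.40). Tm7sf2, the sterol reductase that acts after Cyp51, read 1541, 1704 and 1536 (0.29 and 0.13). Its step can also be carried out by the lamin B receptor Lbr, which read 29522, 15914 and 17847 (-0.75 and -0.59). Sc5d, the desaturase of the late pathway, depended on the probe: its brightest read 3924, 3220 and 3270 (-0.14 and -0.13) and its other probe 347, 101 and 119 (-1.63 and -1.40).

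**Figure D2:**
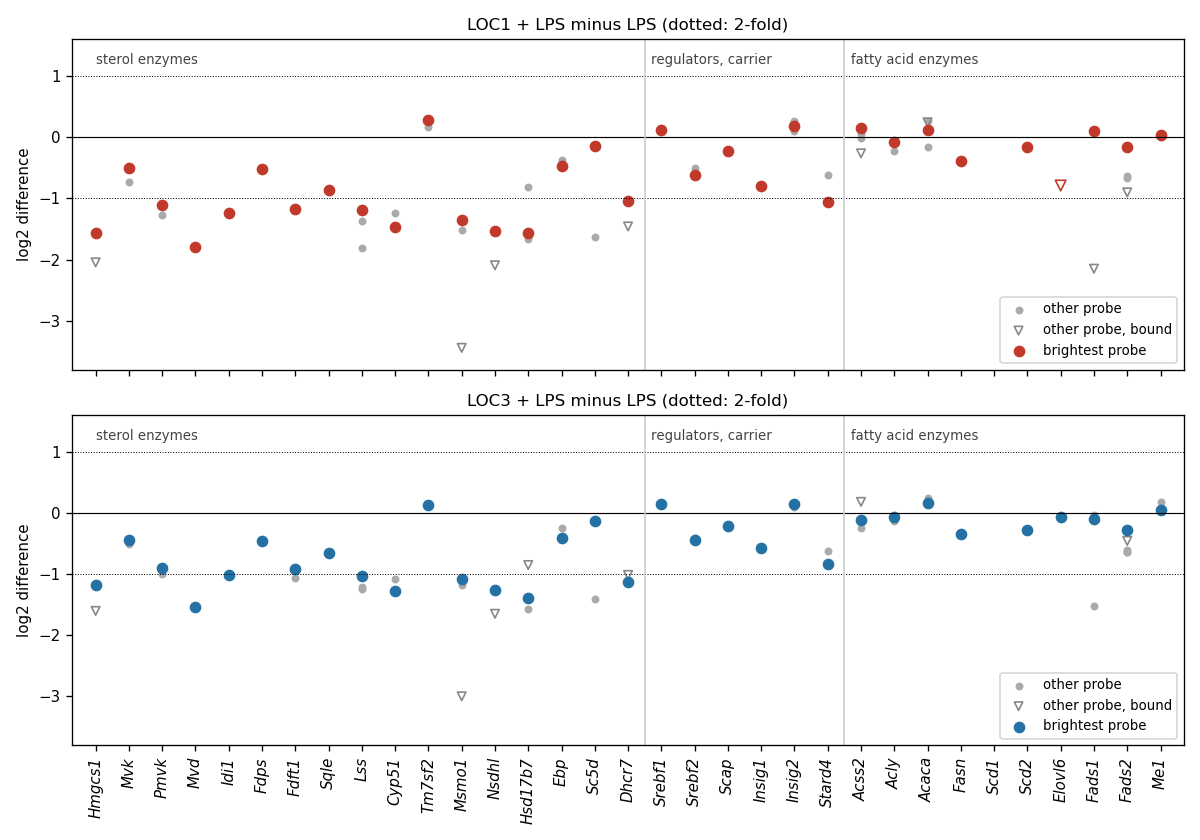
Log2 difference from LPS of each gene in LOC1 + LPS (top) and LOC3 + LPS (bottom), with the brightest probe in colour, other probes in grey and triangles where 1 side was not well above background. A triangle is a bound only where that signal was raised to the lowest one well above background. Dotted lines mark 2-fold, and the lowered brightest probes are sterol enzymes, together with Stard4 in the LOC1 panel.

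Among the 6 regulators and carriers, 1 (Stard4) was 2-fold lower with LOC1 and 0 with LOC3. Srebf2, the SREBP of the sterol pathway, read 3209 in LPS, 1886 in LOC1 + LPS and 2157 in LOC3 + LPS (-0.62 and -0.44), and its second probe gave -0.51 and -0.40. Srebf1, whose forms act on fatty acid genes, read 4792, 4717 and 4833 (0.12 and 0.15). Thus Srebf2 was lower on both lactobacilli arrays and Srebf1 was at about its LPS level. Insig1, which retains SCAP and is itself a known SREBP target, read 826, 430 and 504 (-0.80 and -0.58). Insig2, its relative, read 1996, 2063 and 2018 (0.19 and 0.15), and Scap, the escort protein, 3468, 2692 and 2713 (-0.22 and -0.22). Stard4, a soluble sterol carrier, read 1472, 637 and 751 (-1.06 and -0.83), past 2-fold with LOC1 but not with LOC3, and its second probe gave -0.62 and -0.63.

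Of the 10 fatty acid enzymes, 9 could be compared, and 0 passed 2-fold at the brightest probe with either strain. Of all genes compared, 3.51% were 2-fold lower and 2.7% higher with LOC1, and 2.9% and 3.19% with LOC3. A count of 0 in 9 genes is near those shares. With LOC1, Elovl6 rests on a signal not well above background, so its drop could be larger or smaller than the value given. Fasn, the fatty acid synthase, read 32941 in LPS, 22805 in LOC1 + LPS and 23486 in LOC3 + LPS. These were the largest measured differences of the group at the brightest probe (-0.39 and -0.35). Acly and Acss2 supply cytosolic acetyl-CoA, from citrate and from acetate. Acly read 13944, 12007 and 12156 (-0.07 and -0.06), and Acss2 709, 710 and 596 (0.15 and -0.11). Acaca, the carboxylase that makes malonyl-CoA, read 2620, 2572 and 2666 (0.12 and 0.16), and Me1, the malic enzyme that supplies NADPH, 2827, 2621 and 2653 (0.04 and 0.05). For these 4 genes the arrays stood within 0.26 of each other. Scd2, a stearoyl-CoA desaturase, read 8954, 7291 and 6693 (-0.15 and -0.28), and its relative Scd1 was not well above background on any array, with readings of 9.81, 7.03 and 11.8. The desaturases of polyunsaturated fatty acids were Fads1, at 734, 712 and 626 (0.10 and -0.09), and Fads2, at 459, 374 and 344 (-0.15 and -0.28). Dimmer Fads2 probes well above background on all arrays gave -0.66 and -0.61, -0.63 and -0.63, and -0.17 and -0.64. Elovl6, the elongase of palmitate, was dim at 28.2 and 24.5 in LPS and LOC3 + LPS (-0.06). In LOC1 + LPS it read 14.8, not well above background, and the 1.73-fold drop from LPS uses that reading as it stands. Scaling by the array median in place of the 75th percentile turned the sign of the small differences of Acly with both strains, of Fads2 and Scd2 with LOC1, of Acss2, Fads1 and Elovl6 with LOC3, and of the brightest Sc5d probe with both.

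Set side by side, the sterol enzymes had a median difference of -1.18 with LOC1 (2.26-fold lower), ranging from -1.79 to 0.29, and of -1.02 with LOC3 (2.03-fold lower), from -1.55 to 0.13. The regulators had medians of -0.42 and -0.33, and the fatty acid enzymes of -0.07 and -0.09. Over all genes compared the median was 0.03 with LOC1 and 0.07 with LOC3. Of the 17 sterol enzymes, 16 were below 0 with each strain, the exception being Tm7sf2. Of all genes compared, 46.3% were below 0 with LOC1 and 41.9% with LOC3. The brightest Sc5d probe was near 0 (-0.14 and -0.13) and turned above it with median scaling. The median of the sterol enzymes lay 1.11 below that of the fatty acid enzymes with LOC1 and 0.93 below it with LOC3, distances that do not depend on a shift of the whole array. The counts do depend on it. With median scaling, which moved the median of all genes to 0.22 and 0.23, 7 genes were 2-fold lower with LOC1 and 5 with LOC3, all of them sterol enzymes, and 0 were higher. Of all genes, 2.32% were then lower and 4.45% higher with LOC1, and 1.9% and 4.49% with LOC3. The median of the sterol enzymes under this scaling was -0.99 and -0.86. The genes nearest the threshold were Dhcr7 (-1.04) inside and Sqle (-0.86) outside it with LOC1, and Idi1 (-1.02) inside and Fdft1 (-0.92) outside it with LOC3.

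**Figure D3:**
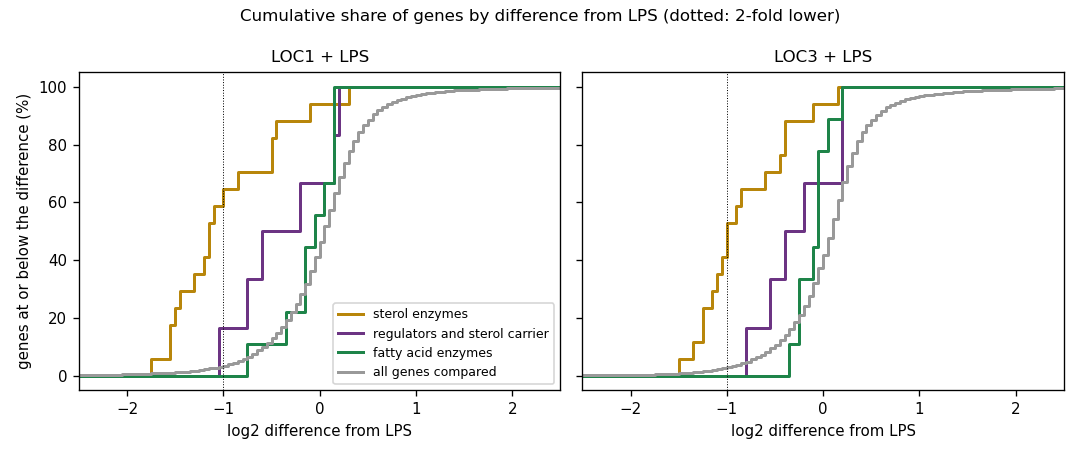
Percentage of genes (vertical axis) at or below each log2 difference from LPS (horizontal axis), for LOC1 + LPS (left) and LOC3 + LPS (right), with a line for each gene group and grey for all genes compared, and a dotted line at 2-fold lower. The sterol line is left of the others, with medians of -1.18 and -1.02, and the fatty acid line is close to all genes around its middle.

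Different probes of a gene mostly gave like values. The 33 genes had 73 probes, of which 66 could be compared with LOC1 and 65 with LOC3, and 25 and 21 of these were 2-fold lower and 0 higher. Of all probes compared, 4.04% were lower and 2.39% higher with LOC1, and 3.54% and 2.76% with LOC3. In the sterol enzymes 23 of 33 probes were lower with LOC1 and 20 of 33 with LOC3. In 19 genes at least 2 probes were well above background on all arrays, and the range between the probes' LOC1 differences had a median of 0.15 and was under 0.5 in 16. The widest were Sc5d (1.49), Lss (0.62) and Fads2 (0.51). Lss was 2-fold lower on each of its 3 probes with both strains, from -1.80 to -1.19 with LOC1. In Msmo1 a dim probe read 196 in LPS and 16.3 and 22.3 on the lactobacilli arrays, where it did not clear the background. Its drops of 10.9-fold and 7.99-fold use these readings as they stand and are not bounds. Bounds of at least 4.13-fold (LOC1) and 3.04-fold (LOC3) came from a dim probe of Hmgcs1, and of 4.26-fold and 3.14-fold from one of Nsdhl. These bounds exceed the drop of the brightest probe of the same gene. The dim probe of Hsd17b7, at 39.4, 20.3 and 9.46, went the other way, with a smaller difference of -0.81 with LOC1 and a bound of -0.85 with LOC3. The brightest probe was used for all counts of genes. A dim probe of Fads1 read 71.2, 11.0 and 22.4, at least 4.43-fold lower with LOC1 and 2.88-fold lower with LOC3, while the gene's other 2 probes lay within 0.10 of LPS.

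Genes that neighbour these pathways without being among the 34 passed 2-fold about as often as genes at large. Of all genes compared, 3.51% were 2-fold lower and 2.7% higher with LOC1, and 2.9% and 3.19% with LOC3. Of 21 other genes of sterol and isoprenoid handling, 20 could be compared, and 1 was 2-fold lower and 0 higher with each strain, with medians of 0.11 and 0.05. That gene was Lrp1, a lipoprotein receptor, at 4242 in LPS, 1636 in LOC1 + LPS and 1778 in LOC3 + LPS (-1.23 and -1.12). Of 26 other genes of fatty acid handling, 24 could be compared, and 2 were lower and 0 higher with each strain, with medians of -0.03 and -0.02. Both rest on dim probes that were not well above background with lactobacilli: Pnpla3, a lipid droplet protein, at least 6.02-fold and 4.41-fold lower, and Lpin1, a phosphatidate phosphatase, at least 3.50-fold and 2.56-fold lower. Dgat2, which completes triglyceride synthesis, read 5871, 2822 and 3365 (-0.91 and -0.67).

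The effect of LPS itself could be read where the authors' table of log2 ratios to unchallenged macrophages lists a probe. The table left cells under 2-fold blank, and these were rebuilt from the intensities, since each column equals the array's log2 signal minus 1 common reference and a constant. Of the array's probes, 13.4% were listed past 2-fold for LPS, 6.31% lower and 7.08% higher. Of the 73 probes of these genes, 33 were in the table, and 12, from 6 genes, were listed past 2-fold for LPS, all lower. Of the 6 genes, Sqle and Acaca were listed through probes not well above background in LPS. Dhcr7, Scd2, Fads1 and, through its dimmer probes, Fads2 remained 2-fold lower when dim signals were raised to the lowest well above background. A gene enters the table only if at least 1 of the arrays passed 2-fold against unchallenged cells, so the genes below are a selection, and 21 of the 33 genes have no brightest probe there.

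Desaturase genes were low in LPS already and stayed so with lactobacilli. Scd2 had an implied intensity of 49732 in unchallenged cells on the scale of the LPS array, and its log2 ratio to unchallenged was -2.47 in LPS, -2.62 in LOC1 + LPS and -2.75 in LOC3 + LPS. Fads1 gave -1.51, -1.41 and -1.60, and Fads2 -0.84, -0.99 and -1.11. In these genes the step from unchallenged to LPS was larger than any step between LPS and the strains. The reverse order was seen in several sterol enzymes. Hmgcs1, with an implied 23093 in unchallenged cells, had a log2 ratio of -0.03 in LPS, -1.60 in LOC1 + LPS and -1.21 in LOC3 + LPS. Idi1 gave 0.15, -1.08 and -0.87, Msmo1 -0.23, -1.57 and -1.30, and Nsdhl -0.45, -1.97 and -1.71. For these 4 the LPS array was within 2-fold of unchallenged cells and the lactobacilli arrays lay below both. Mvk (-0.65, -1.15 and -1.09), Mvd (-0.93, -2.72 and -2.47) and Sqle (-0.75, -1.61 and -1.40) were also below unchallenged cells in LPS by less than 2-fold. Dhcr7 dropped at both steps, with -1.65, -2.69 and -2.79. The regulator Insig1 gave -0.29, -1.09 and -0.86. Over the 8 sterol enzymes with their brightest probe in the table, the median was -0.55 in LPS, -1.60 in LOC1 + LPS and -1.35 in LOC3 + LPS, and over the 3 desaturases it was -1.51, -1.41 and -1.60. Among the neighbouring genes, Dgat2 had a ratio of 3.70 in LPS, and Idh1 (-1.75), Acsl3 (-1.55) and Elovl5 (-1.10) were 2-fold lower.

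**Figure D4:**
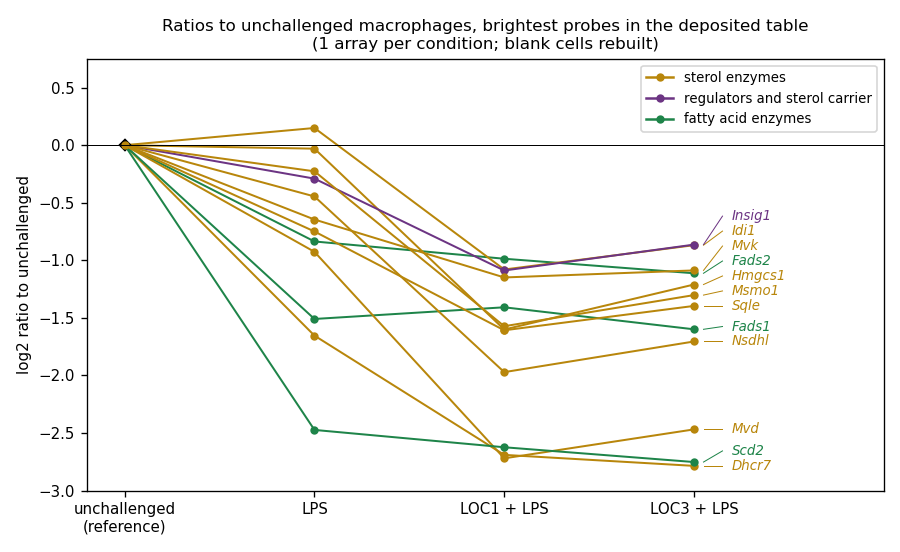
Log2 ratio to unchallenged macrophages (vertical axis) in LPS, LOC1 + LPS and LOC3 + LPS for the 12 genes whose brightest probe is in the deposited table, each line a gene coloured by its group, 1 array per condition, with the unchallenged reference set to 0. Scd2 drops to -2.47 at the LPS step and then changes little, whereas Hmgcs1 is at -0.03 in LPS and at -1.60 and -1.21 with lactobacilli.

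Between the strains the differences were small. Comparing LOC1 + LPS directly with LOC3 + LPS, 0 of 32 genes differed by 2-fold, where 2.63% of 19381 genes did. By 1.5-fold, 1 did (Elovl6, not well above background in LOC1 + LPS), where 5.77% of all genes did. The median difference, LOC1 minus LOC3, was -0.07 over the 32 genes, -0.18 over the sterol enzymes, -0.11 over the regulators and -0.01 over the fatty acid enzymes, and -0.02 over all genes. Of the 17 sterol enzymes, 15 were lower with LOC1, where 55.7% of all genes were. The exceptions were Tm7sf2 (0.16) and Dhcr7 (0.10). Hmgcs1 had the largest difference of the sterol enzymes, at -0.39 (1.31-fold), followed by Msmo1 (-0.27), Nsdhl (-0.26) and Fdft1 (-0.26). A spot-noise limit of 2 technical SDs was passed by 11 sterol enzymes on the lower side and 1 on the higher, where 10.9% and 7.44% of all genes passed it. That limit leaves out the variation between cultures, and with 1 array per strain a difference of this size cannot be told apart from it. In the fatty acid group Acss2 (0.26) and Fads1 (0.19) were higher with LOC1. Elovl6 was 1.65-fold lower from a dim probe that was not well above background in LOC1 + LPS.

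**Figure D5:**
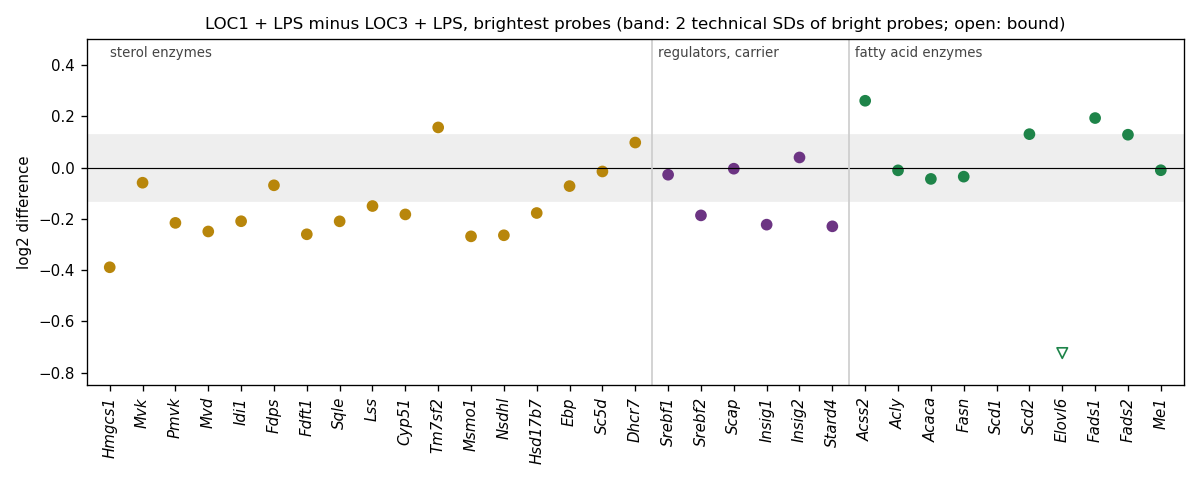
Log2 difference between LOC1 + LPS and LOC3 + LPS for the brightest probe of each gene, coloured by group, with a grey band of 2 technical SDs of bright probes and a triangle where 1 side was not well above background. Most sterol enzymes lie below 0, none beyond -0.39, and the lowest point is the triangle of Elovl6 at -0.72.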

How the data were processed

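RNA was labelled with Cy3 and hybridized to 1-colour Agilent mouse arrays that lay on the same slide, 1 per condition. Spot intensity was deposited by the authors as the background-subtracted processed signal of Feature Extraction 12.0.3.1 (per the file headers), not normalized between arrays. The log2 ratios to unchallenged macrophages were deposited by the authors after GeneSpring processing with values under 2-fold left blank, and the listed values had medians of 1.05 (LPS), -1.03 (LOC1 + LPS) and -1.04 (LOC3 + LPS). Their direction and scale were checked against the intensities. A constant per array (0, -0.146 and -0.141) related them to the intensities with a largest departure of 2.54e-06, and all 12929 blank cells, rebuilt, lay under 2-fold. The submitters' processing notes name limma and R 3.2.5.

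Outlier-marked spots (135, 118 and 133) were left out, and spots of a probe were averaged as log2 intensity less the array's 75th percentile. Signals not well above background that read under the lowest signal well above it were raised to that signal, which gives a bound. Those already over it, such as Elovl6 in LOC1 + LPS, were kept as read and give no bound. A gene was read from its brightest probe and compared if well above background on at least 1 of 2 arrays, with a threshold of 2-fold. Bright probes, for the technical SD, were those down to 1 log2 unit under the 75th percentile. Of the 73 probes, 54 were matched by accession to RefSeq, 0 of them to another symbol. Positions of probes are on mm9, as in the files. The genes, lists and motifs were chosen with earlier results of these data known. All members could be named. Of the neighbouring genes, those past 2-fold in a comparison, the 3 with the largest differences in each, and Lbr could be named, the last chosen after its values were seen. Alternatives were other scalings, normexp (offset 50), the mean of the probes, other filters and another threshold. The scripts were tested on simulated data. Python 3.11.15, numpy 2.4.6, pandas 2.3.3, matplotlib 3.10.9, R 4.3.3 and limma 3.58.1 were used.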

Additional observations from a re-analysis of the deposited data

Results flagged for a closer look

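Acss2 and Fads1 lay on opposite sides of LPS with the 2 strains. Acss2 differed from LPS by 0.15 on the log2 scale in LOC1 + LPS and by -0.11 in LOC3 + LPS, and Fads1 differed by 0.10 in LOC1 + LPS and by -0.093 in LOC3 + LPS. The difference between the strains was not tested, since each condition has 1 array, and with median scaling both LOC3 values turned above 0 (0.05 and 0.07). With the mean of the detected probes both LOC1 values turned below 0, to -0.02 for Acss2 and -0.65 for Fads1.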

How the results depend on the processing

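No paired analysis was possible because each condition has 1 array and the labels give no replicate numbers, and for the same reason no replicate could be left out. The number of genes 2-fold lower than LPS was 12 with LOC1 and 9 with LOC3. It was 7 and 5 with median scaling, which raised the median of all genes to 0.22 and 0.23 and moved the lower share of all 2-fold calls from 56.5% to 34.3% (LOC1) and from 47.6% to 29.7% (LOC3). Counted over probes in place of genes it was 25 and 21. The other settings, among them quantile normalization, normexp, the mean of the probes and a 1.5-fold threshold, gave 11 to 16 genes with LOC1 and 8 to 13 with LOC3, and none gave a gene on the higher side. Between LOC1 and LOC3, a 1.5-fold threshold called 1 gene (Elovl6) in place of 0. The median of the sterol enzymes less that of the fatty acid enzymes was -0.83 with normexp in place of -0.93 (LOC3), and -0.24 for LOC1 against LOC3 when both arrays had to be well above background, in place of -0.17. The causes of these changes were not tested. With dim signals raised, the genes listed 2-fold lower in LPS than in unchallenged cells were 4 in place of 6. Of 766 values of single genes under an alternative, 221 moved by more than the spot noise and 0 of the called ones changed sign. The number of arrays limits the precision, and for dim probes by the signal over background, where the technical SD reached 0.35.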
